A study of Mus musculus with 12 samples.

Results

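The genes described here encode the proteins of the cytosolic ribosome, the particle that makes nearly all proteins of the cell. They were taken from the deposited table by symbol, as every gene named Rpl, Rps or Rplp with a number and, where present, a short suffix for an isoform or a paralogue. The pattern found 80 of the 13554 genes listed, 49 of the large and 31 of the small subunit, spread over 19 chromosomes. Genes had to reach a value of 10 in 3 or more libraries to be tested, which left 79 of them and 12570 genes in all, and Rpl3l did not pass. Genes named Rpl10l, Rpl39l, Rps4l and Rpl26 were not analysed here.

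RNA came from the liver of wild-type (genotype WT) male C57Bl/6J mice, all sampled on postoperative day 3 after partial hepatectomy, in which part of the liver is cut out and the rest grows back. The 4 groups of 3 libraries were a 70% resection (PH70), an 80% resection (PH80), an 80% resection in an arm labelled HC (PH80_HC), and an 80% resection combined with G-CSF, which drives granulocyte production, and HNF4a, a transcription factor that maintains the hepatocyte state (PH80_G+H). What HC stands for, how, when and at what dose G-CSF and HNF4a were given, in which form HNF4a was given, and the age of the mice are stated in none of the sources used here. No unoperated liver was among the groups, and the labels leave unsaid whether libraries within a group were made from different mice. The p-values below therefore rest on the spread between libraries, which may be technical. Values are normalised read counts, errors are SD (n = 3) where no SE is named, and adjusted p-values come from limma with Benjamini-Hochberg adjustment over all genes tested.

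Each ribosome carries a single copy of most of these proteins, and their mRNAs are among the most abundant of any cell. Most of the mRNAs start with a C followed by a run of pyrimidines, the terminal oligopyrimidine (TOP) tract, through which LARP1 and the growth-sensing kinase complex mTORC1 set how much of the mRNA is translated. In the regenerating liver, hepatocytes leave quiescence, enlarge and build ribosomes before they divide, so that ribosome production is a classic feature of the growth phase.

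The sequence around the RefSeq start is shown for 10 members, because the TOP tract is the sequence feature for which these genes are known and because the members differ in how far they moved between libraries. The first 5 had some of the steepest movements and the next 3 had some of the flattest. Rplp2 and Rps6 lay in between. Each window holds the 15 bases before and the 15 bases from the RefSeq start on, in the direction of the gene, and capitals mark its longest unbroken run of C and T. Where RefSeq lists several starts, the one with the longest run is shown.
Rps24: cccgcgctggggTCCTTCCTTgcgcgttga
Rpl13a: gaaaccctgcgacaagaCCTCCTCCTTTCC
Rps12: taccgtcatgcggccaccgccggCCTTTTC
Rpl22l1: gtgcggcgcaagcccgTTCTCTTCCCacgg
Rpl38: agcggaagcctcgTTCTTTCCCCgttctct
Rpl4: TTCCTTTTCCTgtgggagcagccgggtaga
Rpl7l1: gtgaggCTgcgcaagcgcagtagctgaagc
Rpl23: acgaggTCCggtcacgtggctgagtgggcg
Rplp2: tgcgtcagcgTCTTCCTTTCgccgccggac
Rps6: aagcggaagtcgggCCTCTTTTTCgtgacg
On GRCm38.p6 these windows lie at chr14:24490663-24490692 (Rps24, plus strand), chr7:45128731-45128760 (Rpl13a, minus), chr10:23787195-23787224 (Rps12, minus), chr3:28805493-28805522 (Rpl22l1, plus) and chr11:114668565-114668594 (Rpl38, plus). The others lie at chr9:64173372-64173401 (Rpl4, plus), chr17:46782642-46782671 (Rpl7l1, minus), chr11:97782425-97782454 (Rpl23, minus), chr7:141447636-141447665 (Rplp2, plus) and chr4:86857353-86857382 (Rps6, minus).

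The RefSeq promoter table held 60 of the 80 members. A run of at least 8 C or T lay in the window of 27 of these 60 (45.0%), against 13.9% of 27025 genes in the table. The run lay wholly before the RefSeq start in 6 of these 27, across it in 16 and from the start on in 5. The median longest run was 7 bases in the members and 5 in all genes. In the 300 bases around the start, the letters CCGGAA, read on both strands, lay in 32 of 60 members (53.3%) and in 16.7% of all genes, whereas CACGTG, a palindrome, lay in 6 of 60 (10%) and in 8.09% of all genes. The longest run in the window of Rpl4, the flattest of the members with a mean value of at least 1000, has 11 bases and lies wholly before the RefSeq start. In GENCODE, the annotation used for transcript length, Rpl4 starts at chr9:64173375, inside this run. The run reaches the first base of the window, chr9:64173372, so it may be longer than 11 bases. The longest run in the window of Rps12, a steep member, has 7 bases and lies from its RefSeq start on. It reaches the last base of the window and may also be longer. Runs that reach a window edge were counted only up to it. Of the members with a window, 57 had a mean value of at least 1000. Across these, run length within the window and steepness had a Pearson r of 0.0533 (Spearman rho 0.119). This describes genes that share the same 12 libraries.

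Recovered reads ranged from 9.72 to 44.5 M per library, and 76 of the 80 members had a mean value of at least 1000 over the 12 libraries, so counting error was small beside the spread between libraries for these 76. Markers of hepatocytes (Alb, Apoa1, Ttr and Tf) took 8.71% to 13.7% of the values of each library. The share was 12.3% to 13.7% in PH70 and 8.71% to 10.8% in PH80, so these groups did not overlap. It was 9.39% to 13.2% in PH80_HC and 10.9% to 13.5% in PH80_G+H. Many members have processed pseudogenes: 22 of 80 shared at least 50% of their 50-base windows with another annotated gene. The sources used here do not state how such reads were assigned, and the level of a member with many shared windows is uncertain for that reason.

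Per kilobase of annotated transcript, the level of Rplp1 was highest, with a mean value of 52238, followed by Rpl41 at 27627 and Rps12 at 27523. Rplp1 is one of the acidic proteins of the stalk to which elongation factors bind, Rpl41 is the shortest ribosomal protein, and Rps12 is a protein of the small subunit's beak. The windows shared with other genes made up 60.0%, 28.9% and 64.6% of these transcripts. At the other end stood Rpl3l at 2.19 per kilobase, Rpl30 at 10.1 and Rps27 at 50.9, then Rpl34 at 73.2. Rpl3l is the paralogue of Rpl3 used in striated muscle, whereas Rpl30, Rps27 and Rpl34 encode standard parts of the ribosome. Windows shared with another gene made up 22.5% of Rpl30, 46.2% of Rps27 and 11% of Rpl34, and all those of Rps27 were shared with Rps27rt. The part of read assignment in these low levels was not tested.

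The low members were noisy. Rpl30 was at 6.05, 1.83 and 2.23 in the 3 PH70 libraries, 7.03, 10.5 and 15.6 in PH80, 13.0, 13.7 and 3.89 in PH80_HC, and 1.84, 5.44 and 7.48 in PH80_G+H. Rps27 was listed at 0 in PH70 replicate 3, where 3 reads would be worth 6.69, and lay between 10.9 and 37.6 in the other 11 libraries. Slopes and correlations below therefore use the 76 abundant members, whereas counts and medians of the comparisons use all 79 tested.

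The stalk carries the P proteins. Rplp0, the base of the stalk, was at 18217, 13127 and 9029 in PH70, 19699, 22943 and 19557 in PH80, 24656, 20403 and 43311 in PH80_HC, and 20023, 10637 and 18453 in PH80_G+H. Every PH80 and every PH80_HC library was above every PH70 library, while PH80_G+H overlapped with PH70 and PH80. Rplp1 was at 24951, 14258 and 10275 in PH70, 38294, 29326 and 24419 in PH80, 25586, 22999 and 55104 in PH80_HC, and 28778, 12832 and 25976 in PH80_G+H. Rplp2, its dimer partner, was at 6099, 4082 and 3561 in PH70, 11942, 8435 and 6835 in PH80, 7225, 6415 and 15843 in PH80_HC, and 7143, 3714 and 6583 in PH80_G+H. In all 3 stalk genes, PH80_HC replicate 3 was the highest library of the series. PH80 against PH70 gave a log2 difference of 0.68 (SE 0.34, adjusted p = 0.270) for Rplp0, 0.97 (SE 0.42, adjusted p = 0.203) for Rplp1 and 0.99 (SE 0.36, adjusted p = 0.144) for Rplp2 by limma, none past the threshold of 0.05.

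Rpl5 and Rpl11 form, with the smallest rRNA of the large subunit, the particle that binds MDM2 when ribosome assembly is disturbed. Rpl5 was at 6895, 4906 and 3302 in PH70, 8120, 8392 and 7466 in PH80, 6978, 6292 and 13376 in PH80_HC, and 7083, 3377 and 6887 in PH80_G+H. Rpl11 was at 7192, 4926 and 3398 in PH70, 8683, 8070 and 6941 in PH80, 7472, 6659 and 15428 in PH80_HC, and 8015, 3942 and 6821 in PH80_G+H. The PH80 libraries of Rpl5 lay above those of PH70, and those of Rpl11 overlapped with PH70 in the lowest library. Rps6, whose phosphorylation is the classic readout of mTORC1 activity, was at 6383, 4937 and 3106 in PH70, 7542, 8643 and 5986 in PH80, 6143, 5214 and 11065 in PH80_HC, and 6717, 3562 and 6693 in PH80_G+H. Its PH80 and PH70 libraries overlapped, and the table measures the mRNA, not the phosphorylated protein.

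Other members chosen for a known place in the ribosome or a part in disease also had a higher mean in PH80 than in PH70, none past the threshold. Mean values in PH70 and PH80 were 8266 ± 3180 and 11310 ± 1231 (SD, n = 3) for Rpl3, a protein next to the peptidyl transferase centre. They were 11336 ± 4594 and 19107 ± 2664 for Rps3, at the mRNA entry, and 4032 ± 1923 and 8705 ± 1894 for Rps19, the gene most often mutated in Diamond-Blackfan anaemia. For Rps26, near the mRNA exit, they were 3981 ± 1138 and 7086 ± 2420. Rps27a, made as a fusion with ubiquitin, had 5090 ± 2218 and 11859 ± 2342, and Rpl41 had 8347 ± 3691 and 19939 ± 5093. The log2 differences of these 6 ran from 0.51 for Rpl3 to 1.32 for Rpl41, and the libraries of PH70 and PH80 overlapped in Rpl3 and Rps26. By limma, the smallest adjusted p among them was 0.135, for Rpl41.

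**Figure D1:**
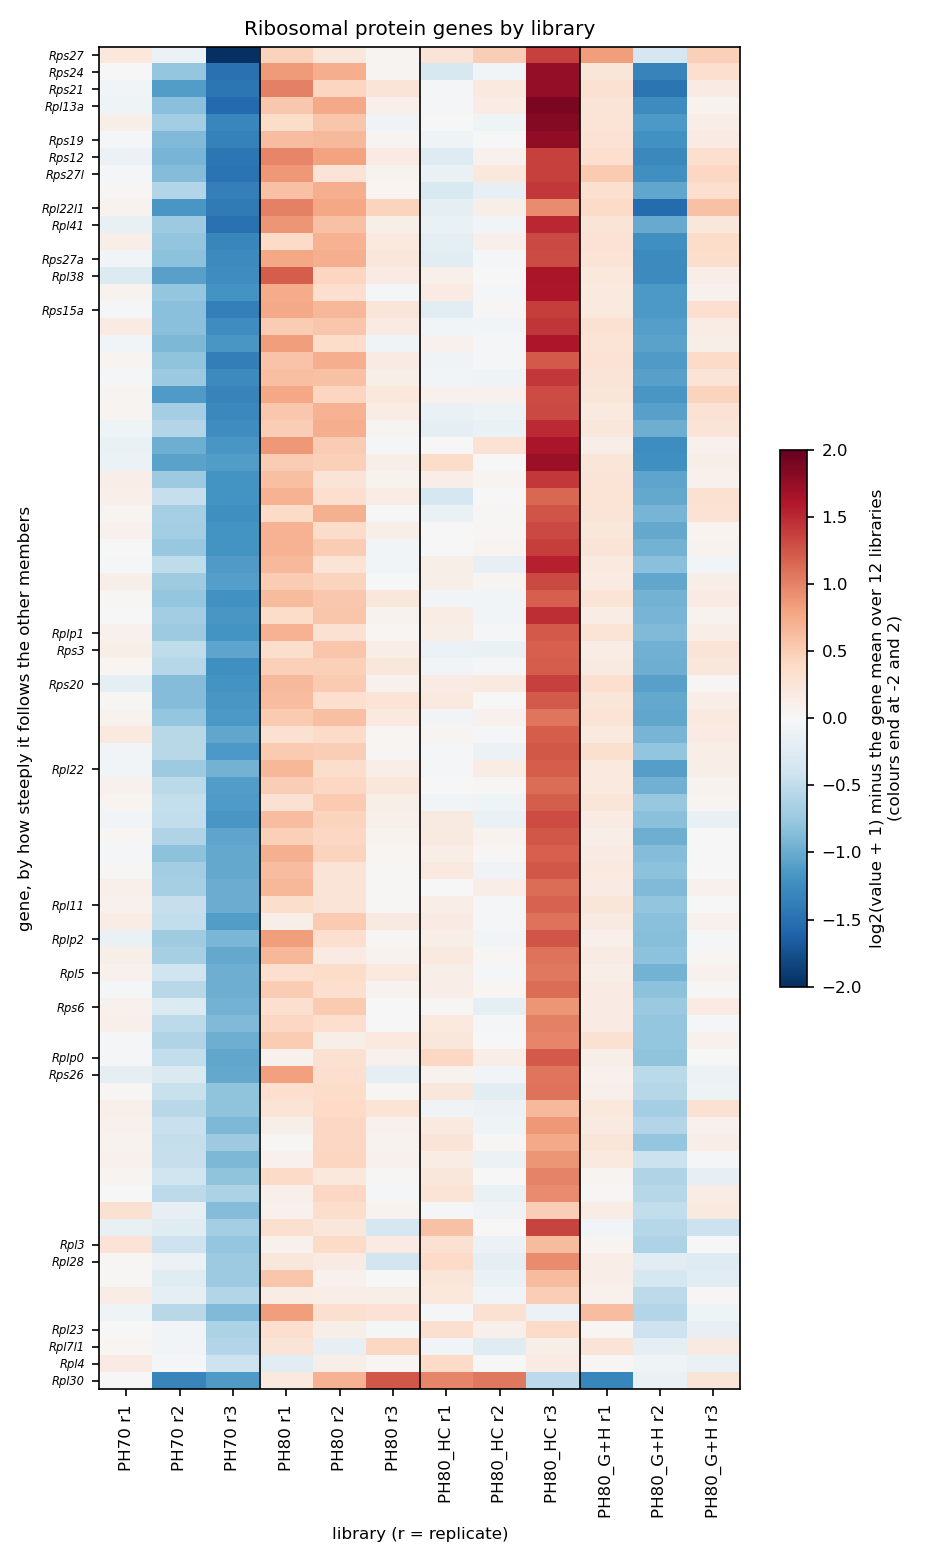
Deviation of each of the 79 tested ribosomal protein genes from its own mean over the 12 libraries, as log2(value + 1), with genes in rows ordered by how steeply they follow the other members and libraries in columns (row names are given for part of the genes). Nearly every gene is red in PH80_HC replicate 3 and blue in PH70 replicates 2 and 3 and in PH80_G+H replicate 2.

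The members moved together between libraries, within groups as well as between them. Of the 76 abundant members, 73 had their highest value in PH80_HC replicate 3, and the exceptions were Rpl7l1, Rpl22l1 and Rpl4. The lowest value fell in PH70 replicate 3 for 68 and in PH80_G+H replicate 2 for the other 8. The highest library was a median of 5.16 times the lowest, from 1.74 times for Rpl4 to 10.8 times for Rpl13a. After subtraction of group means, 94.7% of the variance of the 76 members lay along their first principal component. The median SD within groups was 0.58 on the log2 scale, against 0.31 in all other genes. Relative to the median of the other members it was 0.17.

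The median deviation of the members from their own means showed which libraries stood apart. In PH70 it was 0.03, -0.67 and -1.14 for replicates 1 to 3, and in PH80 0.52, 0.42 and 0.07. In PH80_HC it was 0.09, -0.02 and 1.22, and in PH80_G+H 0.20, -0.93 and 0.12. PH80_HC replicate 3 was thus 2.27-fold above the mean of the other 2 libraries of its own group, and 5.12-fold above PH70 replicate 3. The members' share of all values was 2.51%, 1.56% and 1.25% in PH70, 3.90%, 3.67% and 2.84% in PH80, 2.06%, 2.64% and 4.43% in PH80_HC, and 2.73%, 1.43% and 2.80% in PH80_G+H. By this share every PH80 library was above every PH70 and every PH80_G+H library, and PH80_HC overlapped with the other 3 groups.

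The transcripts of these genes are short, with a median annotated length of 827 bases in the tested members and 2905 bases in the other tested genes, and short transcripts as a whole differed between libraries. The slope of all other genes' deviation on transcript length, in log2 units per doubling of length, was -0.00679, 0.105 and 0.222 in PH70, -0.190, -0.00193 and -0.00308 in PH80, -0.0670, 0.0385 and -0.279 in PH80_HC, and -0.0659, 0.238 and 0.0107 in PH80_G+H. The library with the most negative slope, PH80_HC replicate 3, had the highest members, and the 3 libraries with a slope of 0.105 or more had the lowest. Among the 5 libraries with a slope between -0.00679 and 0.0385, the members' median deviation was 0.03 in PH70 replicate 1, 0.42 and 0.07 in PH80 replicates 2 and 3, -0.02 in PH80_HC replicate 2 and 0.12 in PH80_G+H replicate 3. With the trend on length and GC content, fitted on the other genes, removed from each library, the medians became 0.07, -0.30 and -0.53 in PH70, 0.02, 0.31 and 0.09 in PH80, 0.04, 0.02 and 0.44 in PH80_HC, and 0.07, -0.31 and 0.04 in PH80_G+H. The spread between libraries was smaller on this scale, and the same 4 libraries were still the lowest 3 and the highest. The part of transcript length, or of RNA integrity and other library properties that can act through it, in the members' values was not tested beyond these values.

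**Figure D2:**
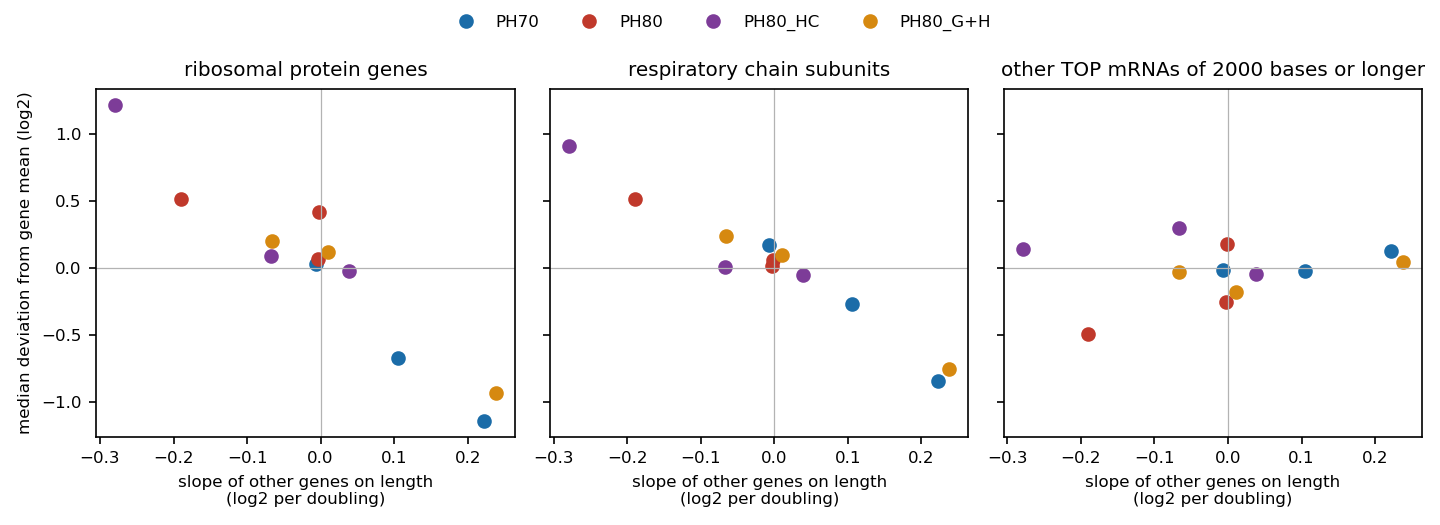
Median deviation from the gene mean (log2, vertical axis) of the ribosomal protein genes, the respiratory chain subunits and the other TOP mRNAs of 2000 bases or longer in each of the 12 libraries, coloured by group, against the slope of all other genes on transcript length in that library (horizontal axis). The first 2 panels run from upper left (PH80_HC replicate 3) to lower right (PH70 replicate 3 and PH80_G+H replicate 2), and the third, with 5 genes, does not show this order.

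How far a member moved with the others differed between members. The slope of a member on the median of the other members, within groups, was 1.51 for Rps24, 1.42 for Rps21, 1.39 for Rpl13a, 1.37 for Rpl36 and 1.36 for Rps19. At the other end it was 0.12 for Rpl4, 0.31 for Rpl7l1, 0.32 for Rpl23, 0.47 for Rpl7, 0.49 for Rps2 and 0.54 for Rpl28. Rpl13a, also known for its release from the ribosome in inflammation, was at 18519, 11127 and 6745 in PH70, 28692, 33590 and 21119 in PH80, 19267, 22010 and 73143 in PH80_HC, and 23711, 8232 and 20822 in PH80_G+H. Rpl4, which lines the exit tunnel of the large subunit, was at 19067, 16655 and 12829 in PH70, 14643, 18597 and 17518 in PH80, 22363, 17057 and 19164 in PH80_HC, and 17287, 16079 and 15465 in PH80_G+H. All 4 groups of Rpl4 overlapped with each other, and its value in PH80_HC replicate 3 was not the highest of its group. Across the 76 members, the slope had a Pearson r of -0.35 with the logarithm of transcript length (Spearman rho -0.423), 0.036 with GC content, 0.0791 with the logarithm of the mean value and -0.0643 with the share of windows found in another gene. These are descriptions over genes measured in the same libraries. Rps15a and Rps20, whose annotated transcripts are the longest of the members at 5154.5 and 3706 bases, had slopes of 1.23 and 1.03. These lengths come from the annotation, and the transcripts made in these livers may be shorter or longer, which was not tested.

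**Figure D3:**
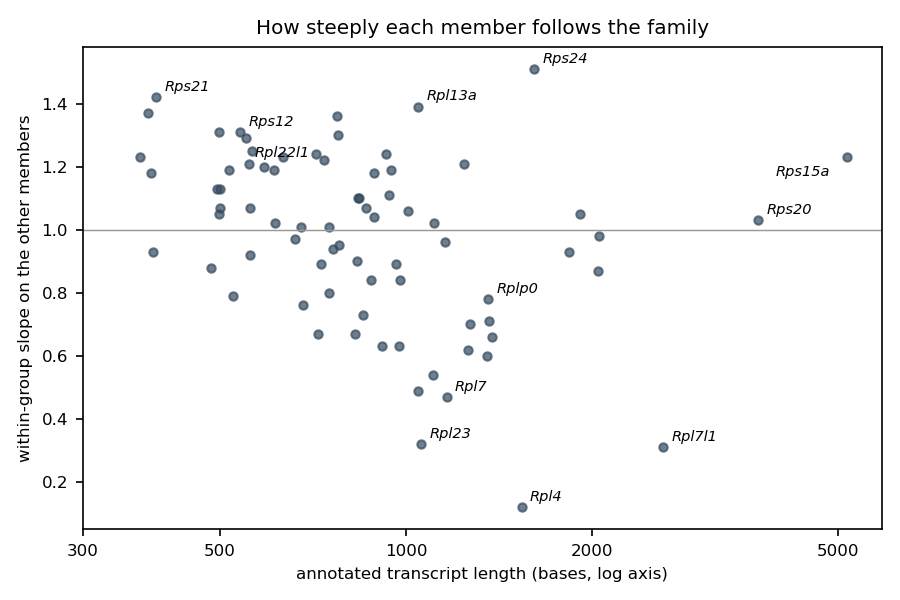
Slope of each of the 76 members with a mean value of at least 1000 on the median of the other members within groups (vertical axis, the line marks 1) against its annotated transcript length in bases (log axis). Rps24, Rps21 and Rpl13a lie highest, and Rpl4, Rpl7l1 and Rpl23 lowest.

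PH80 against PH70 compares the larger with the smaller resection. All 79 tested members had a higher mean after the larger resection, where 51.4% of all tested genes did, and the median log2 difference was 0.94 (0.08 for Rpl4 to 1.57 for Rpl22l1), against 0.01 over all tested genes. No member passed the threshold by limma, where 3.82% of all genes did, and the smallest adjusted p was 0.103. At an unadjusted p under 0.05, 51 of 79 members were counted, against 21.4% of all genes. That count was 2 without PH70 replicate 3, 13 without PH70 replicate 2, 13 without PH80 replicate 1, 21 without PH80 replicate 2, 24 with the length and GC trend removed and 5 with the length slope as a covariate. The count rose to 73 without PH70 replicate 1, 67 without PH80_HC replicate 3 and 59 without PH80_G+H replicate 2. It was 68 with only the compared groups in the fit and 75 with every library scaled to the same total. The share of all genes at this unadjusted p is not reported here for these settings. At an adjusted p under 0.05, limma called 2.19% of all genes without PH70 replicate 3 and 0.485% without PH70 replicate 2. It called 1.38% without PH70 replicate 1 and 5.77% without PH80_HC replicate 3. In 47 of 79, every PH80 library was above every PH70 library, against 12.8% of all genes. Since the members moved together across libraries, these counts are not 79 independent observations. In bulk tissue, fewer cells of a type and less RNA per cell cannot be told apart.

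The largest differences were in Rpl22l1, Rpl30, Rps27 and Rps12. Rpl22l1, the paralogue of Rpl22, was at 2627, 1106 and 939 in PH70, 5011, 4249 and 3386 in PH80, 2203, 2711 and 4814 in PH80_HC, and 3249, 859 and 3733 in PH80_G+H. Each PH80 library was above each PH70 library, and the log2 difference was 1.57 (SE 0.51, 2.98-fold, adjusted p = 0.103 by limma). Rps12 was at 11751, 6663 and 4649 in PH70, 24825, 22143 and 14298 in PH80, 10611, 13383 and 32525 in PH80_HC, and 16058, 5181 and 15931 in PH80_G+H. The PH70 and PH80 libraries did not overlap, and the log2 difference was 1.48 (SE 0.50, 2.78-fold, adjusted p = 0.118 by limma). Rpl38, known for its part in the translation of Hox mRNAs, was at 2677, 1541 and 1376 in PH70 and 7504, 4380 and 3635 in PH80, with a log2 difference of 1.46 (SE 0.47, adjusted p = 0.105 by limma). The rare Rpl30 and Rps27 both had a log2 difference of 1.52 (SE 0.64 and 0.83, adjusted p = 0.194 and 0.306 by limma). The log2 difference of Rps27 ran from 0.20 to 2.26 when 1 library was left out. Rpl30 reached the value needed for testing only in libraries of PH80 and PH80_HC, and its highest value in PH70 was 6.05. The part of this selection in its difference was not tested.

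**Figure D4:**
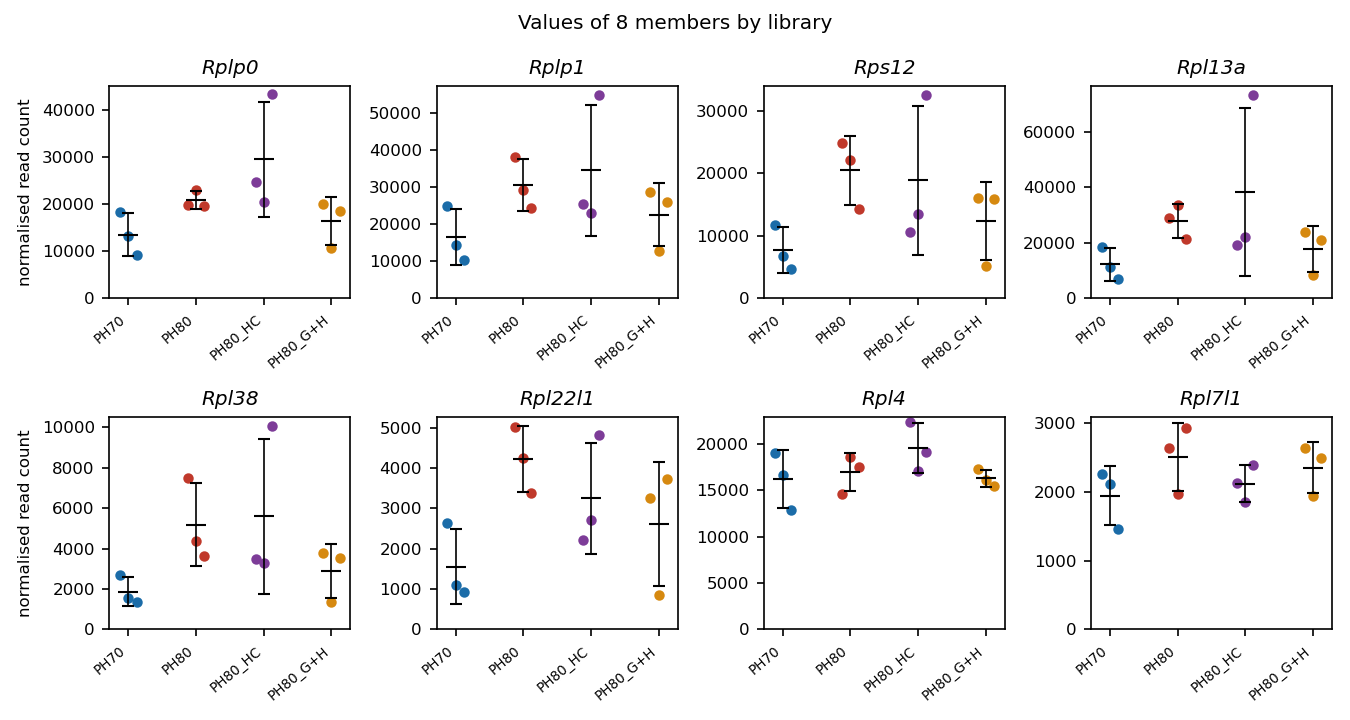
Normalised read counts of 8 members in the 12 libraries, coloured by group, with the mean and SD of 3 libraries as horizontal line and error bar (linear axes from 0). In Rplp0, Rplp1, Rps12, Rpl13a and Rpl38 the highest point is PH80_HC replicate 3, while Rpl4 and Rpl7l1 differ little between the groups relative to their spread.

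Some alternatives called members in this comparison. With only the PH70 and PH80 libraries in the fit, Rpl22l1, Rpl38 and Rps12 passed by limma (adjusted p = 0.0398, 0.0378 and 0.0487), where 3.63% of all genes did. DESeq2 on the recovered reads called the same 3 genes (adjusted p = 0.0368, 0.0255 and 0.0372), where it called 7.57% of all genes, and edgeR called 0 members, where it called 2.93%. The same 0 came from edgeR for the other groups against PH70 (0.119% of all genes for PH80_HC and 0.00796% for PH80_G+H), for PH80_HC against PH80_G+H (0.374%) and for its test over the 4 groups (1.71%). Without PH80_HC replicate 3, limma called Rpl38 alone (adjusted p = 0.0423, 5.77% of all genes), and without PH80_G+H replicate 2 it called Rpl22l1 alone (adjusted p = 0.0341, 3.57% of all genes). With the length and GC trend removed, the median log2 difference of the members was 0.39. There 74 of 79 were higher and 0 were called (5.44% of all genes). With the length slope as a covariate the median was 0.27, with 77 higher and 0 called (3.57% of all genes). Without the library of steepest length slope in each group, it was 0.55, with 78 higher and 0 called (2.41% of all genes).

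Within bins of annotated length, the members' median log2 difference of PH80 against PH70 was 1.11 in the 10 members under 500 bases, 1.0 in the 23 from 500 to under 750, 0.97 in the 22 from 750 to under 1000, 0.63 in the 15 from 1000 to under 1500 and 0.84 in the 6 from 1500 to under 2500. All other genes in these bins had medians of 0.88 (n = 47), 0.64 (n = 217), 0.44 (n = 417), 0.25 (n = 1234) and 0.07 (n = 3110). The members' median was above that of other genes of like length in each of these 5 bins. The gap was 0.23, 0.36, 0.53, 0.38 and 0.77 from the shortest to the longest bin. The bins use annotated lengths, not the lengths of the transcripts made in these livers, which were not measured.

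PH80_HC against PH80 asks whether the HC arm differed from the 80% resection without that label. Of 79 members, 55 had a higher and 24 a lower mean, with a median log2 difference of 0.07 (-0.44 to 0.57), and this direction turned to 5 higher and a median of -0.26 when every library was scaled to the same total. That scaling moved the median of all genes by -0.33 in this comparison, by 0.12 for PH80 against PH70, by -0.21 for PH80_HC against PH70 and by -0.23 for PH80_HC against PH80_G+H. Relative to all genes, the members' median was then 0.05, 0.93, 1.01 and 0.58. Limma called 0 members, where it called 0.891% of all genes, 0 were under an unadjusted p of 0.05 (14.3% of all genes), and the groups overlapped in all 79, whereas PH80_HC lay wholly above PH80 in 8.26% of all genes and wholly below it in 7.38%. DESeq2 and edgeR also called 0, where they called 4.04% and 0.923% of all genes. Without PH80_HC replicate 3 the median was -0.32, with 7 higher and 0 called (0.573% of all genes).

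Among the largest differences in that comparison were those of Rps27, Rpl22l1 and Rplp0. Their log2 differences were 0.46, -0.44 and 0.43, with adjusted p of 0.871, 0.768 and 0.626 by limma. The groups overlapped in all 3 genes.

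PH80_G+H against PH80 asks the same for G-CSF with HNF4a. Here 78 of 79 members had a lower mean, where 50% of all genes had a higher one, and the exception was the rare Rps27. The median log2 difference was -0.54 (-1.10 to 0.08). Limma called 0 members, where it called 0.119% of all genes, and the smallest adjusted p was 0.527. No member was under an unadjusted p of 0.05, against 10.5% of all genes, and DESeq2 and edgeR called 0 (1.61% and 0.0875% of all genes). In 6 of 79 members all PH80_G+H libraries were below all PH80 libraries, a share near the 8.11% of all genes. Rpl3, Rpl5, Rpl7, Rpl27 and Rps7 were among the 6, picked out after their values were seen. Without PH80_G+H replicate 2 the median was -0.19, and with the length slope as a covariate it was -0.07.

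The largest differences were in Rpl30, Rpl22l1, Rpl38 and Rps21. Rpl30 reached the value needed for testing only in libraries of PH80 and PH80_HC, and its highest value in PH80_G+H was 7.48. It was thus tested only through groups in which it was high, and the part of this selection in its difference was not tested. Rpl38 was at 3766, 1336 and 3547 in PH80_G+H, with a log2 difference of -0.91 from PH80 (SE 0.47, adjusted p = 0.527 by limma). Rps21, a small protein of the small subunit, was at 12687, 8554 and 7579 in PH80 and 7826, 2300 and 7125 in PH80_G+H, with a log2 difference of -0.89 (SE 0.53, adjusted p = 0.585 by limma). Both genes had their lowest value in PH80_G+H replicate 2, and both pairs of groups overlapped.

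The comparisons of PH80_HC and PH80_G+H with PH70 share the PH70 libraries with the first comparison, so they are given side by side. For PH80_HC against PH70, all 79 members had a higher mean (50.3% of all genes), with a median log2 difference of 1.02. Limma called 0 (0.231% of all genes), 66 were under an unadjusted p of 0.05 (15.8%), and in 21 every PH80_HC library was above every PH70 library (7.96%). The count of 66 was 6 without PH80_HC replicate 3, 6 without PH70 replicate 3, 27 without PH70 replicate 2, 26 with the length and GC trend removed and 1 with the length slope as a covariate. It was 75 without PH70 replicate 1 and 43 with every library scaled to the same total. For these settings too, the share of all genes at this unadjusted p is not reported here. DESeq2 called 6, with Rpl38, Rplp0, Rps10, Rps20 and Rps28 among them, where it called 2.01% of all genes. For PH80_G+H against PH70, all 79 had a higher mean (48.8% of all genes), with a median of 0.37. Limma called 0 (0.00796% of all genes), 0 were under an unadjusted p of 0.05 (5.97%), and in 0 was every PH80_G+H library above every PH70 library (5.95%). DESeq2 called 0 there (0.525%). Without PH80_HC replicate 3 the first median was 0.60, and without PH80_G+H replicate 2 the second was 0.73. The largest differences of PH80_HC from PH70 were 1.98 in Rps27, 1.51 in Rps21, 1.49 in Rpl13a and 1.46 in Rps10 (adjusted p = 0.291, 0.244, 0.246 and 0.198 by limma). Those of PH80_G+H from PH70 were 1.59 in Rps27, 0.69 in Rps27l, 0.64 in Rpl22l1 and 0.64 in Rpl39 (adjusted p = 0.870, 0.964, 0.987 and 0.963 by limma). With 1 PH70 library listed at 0, the values of Rps27 ran from 0.66 to 2.72 and from 0.28 to 2.34 when 1 library was left out.

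Between PH80_HC and PH80_G+H, PH80_HC had the higher mean in 78 of 79 members (51.9% of all genes), the exception being Rpl7l1, with a median log2 difference of 0.60, and this turned to 18 higher and a median of -0.11 without the library of steepest length slope in each group. Limma called 0 (0.255% of all genes) and counted 5 at an unadjusted p under 0.05 (13.6%), with Rpl21, Rplp0, Rps10 and Rps28 among them. The count ran from 1, without PH80_HC replicate 3 or PH80_G+H replicate 2, to 23, without PH80_HC replicate 2, when 1 library was left out. It was 14 without PH80_G+H replicate 1, 10 without PH80_HC replicate 1, 3 without PH80 replicate 2 and 2 without PH70 replicate 2. Shares of all genes at this unadjusted p are not reported here for these settings. In 3 members, Rpl23 and Rplp0 among them, which were picked out after their values were seen, the groups did not overlap (8.71% of all genes). The log2 difference of Rplp0 was 0.82 (SE 0.34, 1.77-fold, adjusted p = 0.312 by limma). DESeq2 called 1 member in this comparison, where it called 2.41% of all genes. Among the largest differences were 0.99 in Rps10, 0.98 in Rps28 and 0.98 in Rpl13a (adjusted p = 0.353, 0.360 and 0.423 by limma). Over all 4 groups the F test of limma called 0 members (1.85% of all genes) and counted 20 at an unadjusted p under 0.05 (19.1%), and DESeq2 called 6 (9.75%). The count of 20 was 1 without PH70 replicate 2 or replicate 3, 6 without PH80 replicate 1 and 11 without PH80 replicate 2. It was 58 without PH70 replicate 1, 39 without PH80_G+H replicate 2 and 31 without PH80_G+H replicate 1 or PH80_HC replicate 2. With the length slope as a covariate it was 0. Here too, the shares of all genes at this unadjusted p are not reported for these settings.

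**Figure D5:**
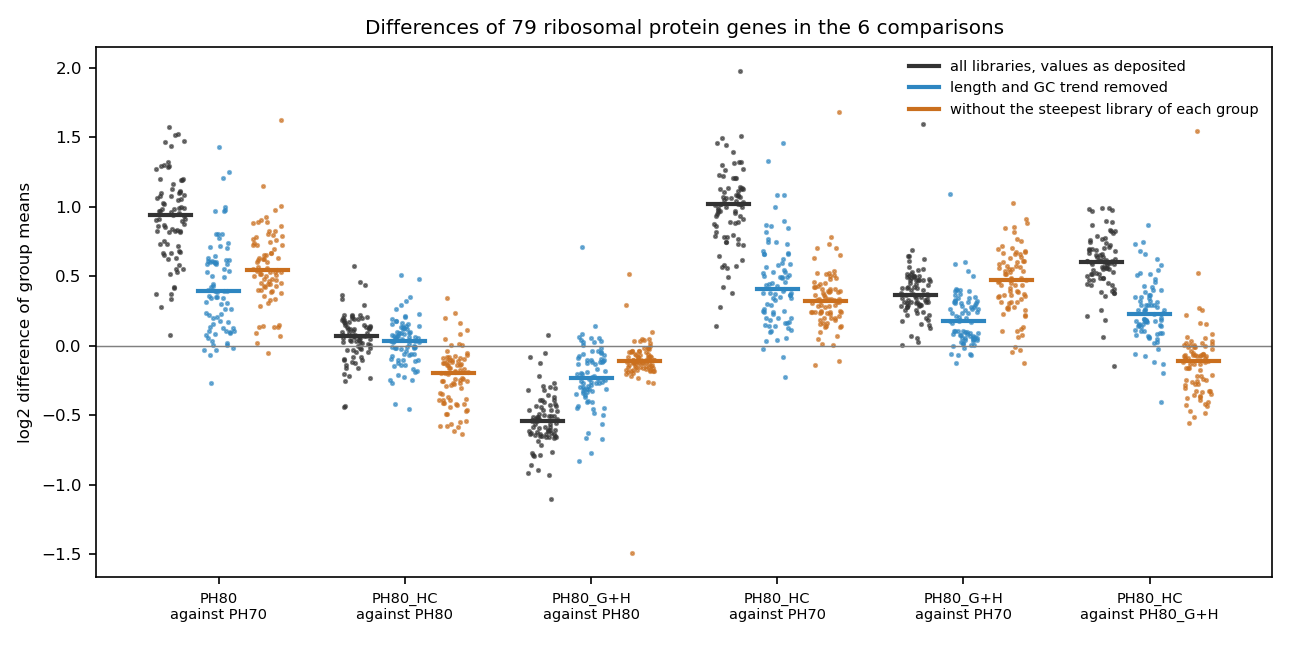
Log2 differences of the 79 tested members (points) and their medians (lines) in the 6 comparisons, from the values as deposited, with the length and GC trend removed, and without the library of steepest length slope in each group. The median of PH80 against PH70 is 0.94, 0.39 and 0.55 in the 3 settings, and that of PH80_HC against PH80_G+H is 0.60, 0.23 and -0.11.

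To ask which members moved apart from the family, each library was centred on the median of the members, and the fit was repeated. None of the 79 was called by limma in any comparison. Of all genes, 2.40% were called for PH80 against PH70 and 0% to 0.0477% in the other comparisons. For PH80 against PH70, members above the family with the smallest adjusted p by limma were Rpl22l1 (0.162), Rps12 (0.166), Rpl38 (0.181) and Rps21 (0.20). Their log2 differences were 0.74, 0.65, 0.63 and 0.61. Below the family were Rpl4 at -0.75 (adjusted p = 0.176) and Rpl28 at -0.55 (adjusted p = 0.224). For PH80_HC against PH70, Rpl7l1 was at -0.79 (SE 0.37, adjusted p = 0.123), Rpl7a at -0.55 and Rpl4 at -0.65, while Rpl13a was at 0.57, Rps21 at 0.58 and Rps10 at 0.54. The other comparisons had no member under an adjusted p of 0.45 on this scale. Across the 76 abundant members, the difference of PH80 from PH70 and the slope within groups had a Pearson r of 0.911 (Spearman rho 0.909), so the members that differed most between these groups were those that also differed most between libraries of the same group.

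Several members have a paralogue that can take their place in the ribosome. The ratio of Rpl22l1 to Rpl22, which bind RNA outside the ribosome as well, was 0.591, 0.397 and 0.393 in PH70, 0.681, 0.725 and 0.665 in PH80, 0.485, 0.532 and 0.451 in PH80_HC, and 0.613, 0.399 and 0.744 in PH80_G+H. Every PH80 library was above every PH70 and every PH80_HC library. The mean ratio was 0.690 ± 0.031 in PH80 against 0.461 ± 0.113 in PH70 and 0.489 ± 0.0409 in PH80_HC (SD, n = 3 each). An exact permutation test on the log2 ratio, two-sided, gave p = 0.1 for both comparisons, which is the smallest p that 3 against 3 libraries allow, and 0.45 after Benjamini-Hochberg adjustment over 9 such tests. Annotated transcripts of Rpl22l1 and Rpl22 have 552 and 2048 bases, and 51.4% of the windows of Rpl22l1 were shared with other genes. The part of length and of shared windows in the ratio was not tested. In PH80_HC replicate 3, the library with the most negative length slope, the ratio was 0.451. It was lowest in the libraries with a length slope of 0.105 or more. There it was 0.397 and 0.393 in PH70 replicates 2 and 3 and 0.399 in PH80_G+H replicate 2.

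The ratio of Rpl36al to Rpl36a lay between 0.456 and 0.562 in all 12 libraries, and its mean was 0.508 ± 0.0425 in PH70 and 0.505 ± 0.0537 in PH80 (SD, n = 3 each, exact permutation p = 0.9). Rpl7l1, a paralogue of Rpl7 that acts in ribosome assembly, stood at 0.222 to 0.360 of Rpl7. Its own values were 2258, 2111 and 1458 in PH70, 2627, 1959 and 2925 in PH80, 2122, 1845 and 2386 in PH80_HC, and 2633, 1931 and 2487 in PH80_G+H. The smallest exact permutation p of the 3 comparisons of this ratio was 0.3. Rps27l, a paralogue of Rps27 that is induced by p53, was at 6990, 3855 and 2547 in PH70 and 12894, 8552 and 7400 in PH80, and was 277 to 655 times Rps27 where the latter was above 0.

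Some ribosomal protein genes have names that do not follow the pattern. Rpsa was at 14835, 9317 and 6708 in PH70, 25364, 22994 and 16973 in PH80, 14755, 12649 and 39352 in PH80_HC, and 16581, 8515 and 17148 in PH80_G+H. For 4 such genes together, with Rpsa, Fau and Rack1 among them, the median log2 difference of PH80 from PH70 was 0.73, against 0.94 in the members, 4 of 4 were higher, and limma called 0. The ribosomes of mitochondria, which translate the mitochondrial genome, share no protein with those of the cytosol. Of their 78 tested genes, 67 had a higher mean in PH80 than in PH70 and 7 in PH80_G+H than in PH80, with medians of 0.43 and -0.25, where 51.4% and 50% of all genes had a higher mean. Of 70 tested subunits of the respiratory chain, whose transcripts are also short, 60 and 9 did, with medians of 0.48 and -0.33. Limma called 0 genes of these 3 lists in each of the 6 comparisons, where it called 3.82% of all genes for PH80 against PH70 and 0.00796% to 0.891% for the others.

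Other TOP mRNAs encode elongation and initiation factors. Of 19 listed genes, 14 had a higher mean in PH80 than in PH70, against 51.4% of all genes. The median log2 difference was 0.28, and 0 were called, against 3.82% of all genes. Eef1a1, the most abundant elongation factor, was at 90622, 78447 and 58809 in PH70, 49672, 71164 and 65914 in PH80, 89705, 63601 and 81694 in PH80_HC, and 64310, 57609 and 69320 in PH80_G+H. Its log2 difference of PH80 from PH70 was -0.28 (adjusted p = 0.615 by limma), against 0.37 for Tpt1, -0.33 for Eef2 and -0.33 for Pabpc1 (adjusted p = 0.484, 0.483 and 0.498). The 14 TOP mRNAs under 2000 bases had median deviations of 0.52 in PH80_HC replicate 3 and -0.52 in PH80_G+H replicate 2. The 5 of 2000 bases or longer (Eef1d, Eef2, Eif3f, Eif4b and Pabpc1) had medians of 0.14 and 0.05 there and went both ways. In PH80_HC replicate 3 they stood at 0.97 for Eef1d, 0.79 for Eif3f, 0.14 for Eef2, 0.11 for Eif4b and -0.58 for Pabpc1.

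Genes that control the synthesis of ribosomal proteins came next. Of 16 genes of the mTORC1, LARP1 and MYC lists, 3 had a higher mean in PH80 than in PH70, against 51.4% of all genes. The median log2 difference was -0.17. Limma called 0 in all 6 comparisons, against 3.82% of all genes for PH80 against PH70 and 0.00796% to 0.891% for the others. Larp1 was at 2119, 2517 and 2778 in PH70 and 1963, 2985 and 2426 in PH80. Myc was at 163, 192 and 359 in PH70, 122, 317 and 185 in PH80, 271, 234 and 104 in PH80_HC, and 188, 259 and 198 in PH80_G+H. The groups overlapped in both genes. Of 15 tested chaperones and quality-control factors of ribosomal proteins, 10 were higher in PH80 than in PH70, against 51.4% of all genes. Their median was 0.13, and 0 were called, against 3.82% of all genes.

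Markers of other cell types and of cycling cells were summed in each library. The summed value of 8 macrophage markers ranged from 9390 to 12494 in PH70, 11408 to 27456 in PH80, 18985 to 28916 in PH80_HC and 11181 to 16121 in PH80_G+H. That of 7 neutrophil markers ranged from 145 to 508, 307 to 5938, 592 to 2146 and 362 to 2385 in the same order, and that of 7 lymphocyte markers from 107 to 146, 82.3 to 212, 152 to 464 and 69.3 to 165. The 5 stellate markers summed to 4718 to 12180, 6431 to 18086, 3744 to 5729 and 5478 to 9560, and the 2 erythroid markers in the table to 1449 to 3084, 944 to 1259, 1194 to 3958 and 1156 to 2173. PH80 and PH70 did not overlap in the erythroid sum, in the hepatocyte share given above or in the cycling sum given below. They overlapped in the macrophage, neutrophil, lymphocyte and stellate sums. Of the 2 erythroid markers, 1 had a higher mean log2 value in PH80 than in PH70, against the direction of the sum. The endothelial and cholangiocyte sums overlapped between all 4 groups. The 4 cycling markers (Mki67, Top2a, Cdk1 and Ccnb1) summed to 3583 to 3766 in PH70, 5001 to 9898 in PH80, 2692 to 5441 in PH80_HC and 2573 to 3752 in PH80_G+H. Cdk1, the kinase of mitotic entry, was at 1128, 1115 and 961 in PH70 and 2049, 3292 and 2116 in PH80, a log2 difference of 1.19 (SE 0.27, adjusted p = 0.0305 by limma). No marker of these lists was at 0 in all libraries of a group, and the part of cell makeup or of the cell cycle in the members' values was not tested.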

How the data were processed

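Polyadenylated RNA was sequenced from libraries of the TruSeq Stranded mRNA kit, per the labels' protocols. GRCm38 (mm10) is the build and DESeq2 a tool named in the submitters' processing notes. Which aligner, counting tool and annotation were used is stated in none of the sources used here. The deposited values are a normalised signal: 100% came out as whole reads within 0.01 after multiplication by 1 factor per library, and these factors equalled recomputed DESeq2 size factors.

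Values were tested as log2(value + 1) with limma 3.58.1 (R 4.3.3) in 1 fit of 12 libraries, group as factor and an intensity trend, two-sided, at an adjusted p under 0.05. A fold change on this scale understates that of low genes. Because these values are not whole counts, edgeR 4.0.16 and DESeq2 1.42.0 were run on the recovered reads as alternatives among 28 settings. The scripts were tested on simulated data. Transcript length and GC content came from GENCODE M21 (GRCm38, the median over a gene's best supported principal coding transcripts), in which all 80 members matched 1 gene. Length and GC trends were natural splines with 4 degrees of freedom. Promoter sequences came from RefSeq (GRCm38.p6).

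Named are members by role and paralogue pair, up to 4 per comparison with the largest difference where none passed, up to 5 per direction relative to the family (some left out for length), the highest and lowest per kilobase, and 6 fixed genes of other lists. Some genes that this rule names are not reported here. The members and lists were chosen with earlier results of these data known.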

Additional observations from a re-analysis of the deposited data

How the results depend on the processing

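Limma called 0 members in the 6 comparisons and the F test, and this held in every alternative except these. With only the compared groups in the fit, 3 members were called for PH80 against PH70. With DESeq2, 3 were called for that comparison, 6 for PH80_HC against PH70, 1 for PH80_HC against PH80_G+H and 6 for the F test. Leaving out 1 library at a time gave 0 to 1 called members for PH80 against PH70, where limma called 0.485% to 5.77% of all genes. It gave 0 for the others, where limma called 0% to 2.22% of all genes. The reason for these calls was not tested.

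Leaving out 1 library moved the members' median log2 difference between 0.66 and 1.22 for PH80 against PH70, -0.32 and 0.27 for PH80_HC against PH80, -0.77 and -0.19 for PH80_G+H against PH80, 0.60 and 1.31 for PH80_HC against PH70, 0.11 and 0.73 for PH80_G+H against PH70, and 0.22 and 0.81 for PH80_HC against PH80_G+H. With the length slope as a covariate the medians were 0.27, -0.07, -0.07, 0.20, 0.21 and 0.02 in that order. Without the library of steepest length slope in each group they were 0.55, -0.20, -0.11, 0.32, 0.47 and -0.11. The difference of Rpl13a between PH80_HC and PH80_G+H turned from 0.98 to -0.11 in that setting, which leaves out PH80_HC replicate 3 and PH80_G+H replicate 2 together, and ran from 0.37 to 1.33 when 1 library was left out.

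Libraries carry the same replicate numbers in each group. Of 18 same-number pairs, 6 had deviations that correlated above 0.1 (range -0.367 to 0.373). Of 12 libraries, 1 correlated best with its own number. Whether libraries of the same number belong together is not stated in the labels, and these correlations cannot decide it. With the replicate block, 0 members were called in each comparison, with or without the length and GC trend removed. For PH80 against PH70, 2.33% of all genes were called with the trend kept and 3.99% with it removed. In the other comparisons the share was 0.00796% to 1.24%. The members' median for PH80 against PH70 was 0.94 with the trend kept and 0.39 with it removed. Low values limit the precision for Rpl3l, Rpl30, Rps27 and Rpl34.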
